A study of Mus musculus with 18 samples.

Results

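The 39 genes described here encode enzymes that break down amino acids, with 1 cofactor-regenerating protein, and were taken by symbol from the deposited expression table and grouped by substrate. All 39 were found among the 16873 genes listed and passed the filter on low values, which 14455 genes passed. The substrate groups were histidine (4 genes), phenylalanine and tyrosine (5), tryptophan (5), serine and glycine (6), methionine and cysteine (6), branched-chain amino acids (6), and alanine, aspartate, proline and lysine (7). The RNA came from hepatocytes, the main epithelial cells of the liver, of wild-type (WT) mice and of mice lacking Mtdh (KO). Mtdh encodes metadherin, a membrane protein of the endoplasmic reticulum that has been linked to NF-kB signaling. The mice were of matched age and bore no tumor. Hepatocytes of each genotype were exposed to TNFa, to TGFb, or to medium conditioned by Kupffer cells, the resident macrophages of the liver, that had received Py8119-EVPs (CM; Py8119 is a mouse mammary tumor cell line). That gives 6 groups of 3 libraries, 18 in all, with no untreated group, so each treatment can only be set against another one. The deleted part of Mtdh, doses, times, sex, and the genotype of the Kupffer cells are stated in none of the sources used here.

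The liver takes up most of the amino acids that arrive from the gut and degrades those not needed for protein. Aminotransferases and dehydratases strip the nitrogen, which goes to urea. Other enzymes, dioxygenases among them, pass the carbon to glucose, ketone bodies or the folate pool of one-carbon units. Several of these enzymes, among them Tat, Tdo2 and Sds, are textbook targets of glucagon and glucocorticoids, and the branched-chain amino acids differ from the rest in that their first transamination takes place largely outside the liver.

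Mtdh itself followed the labels, with deposited values between 10063 and 13725 in the 9 WT libraries and between 581 and 973 in the 9 KO libraries. Depth was estimated at 19.4 to 35.6 M reads on protein-coding genes per library (median 23.4 M), and the least abundant member, Sdsl, was represented by 11.0 to 78.0 estimated reads. Of the 11 hepatocyte markers used (albumin, apolipoproteins and others), all were tested, and their sum took 7.49% to 12.7% of a library. Values below are the authors' normalized values per library, in the order of replicates 1, 2 and 3. Differences are log2 differences with 1 added to each value, KO minus WT. They set 3 against 3 libraries within a treatment and 9 against 9 on average. The SE and adjusted p-values come from limma over all genes tested. It estimates the spread of a gene from all 18 libraries, with the other genes as a prior. A gene therefore has the same SE with each treatment, and the SE does not show the spread of 1 group. Replicates are called biological by the design text. Which library came from which mouse is not given, so p-values measure the spread between these libraries.

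Transcripts for amino acid breakdown were higher in KO than in WT hepatocytes under each of the 3 treatments, and the count of members was largest with TGFb. With TNFa 22 of 39 members rose and 1 fell at adjusted p below 0.05, where 4.19% of all genes rose, 3.70% fell and 7.89% did either. With TGFb 35 rose and none fell (background 7.25% higher, 4.95% lower, 12.2% either), and with CM 27 rose and none fell (5.62%, 3.77% and 9.39%). Averaged over the treatments, 36 rose, 1 (Gldc) fell and 2 (Sdsl and Gpt2) did not pass, against 11.2% and 9.53% of all genes (20.7% either). Of the 36, Ahcy turned to -0.01 when libraries were scaled to an equal sum of hepatocyte markers. That scaling also lost some of the rises with TGFb and with CM, which are listed with the hepatocyte markers below. The median member difference was 0.63 with TNFa, 1.13 with TGFb, 0.64 with CM and 0.84 on average, and the median over all genes tested was 0.02, -0.01, -0.01 and 0.00. The groups were also well separated by library: all 3 KO libraries lay above all 3 WT libraries for 28 members with TNFa, 36 with TGFb and 36 with CM, as for 13.3%, 13.9% and 13.3% of all genes. The reverse held for 2 members with TNFa (Gldc and Gpt2), none with TGFb and 1 with CM (Gldc), against 11.5%, 12.8% and 12.4%. In bulk RNA, fewer cells of a type and less RNA per cell cannot be told apart, and macrophage markers were higher in KO as well (7, 9 and 8 of 12 with TNFa, TGFb and CM); their values are given after the enzymes.

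**Figure D1:**
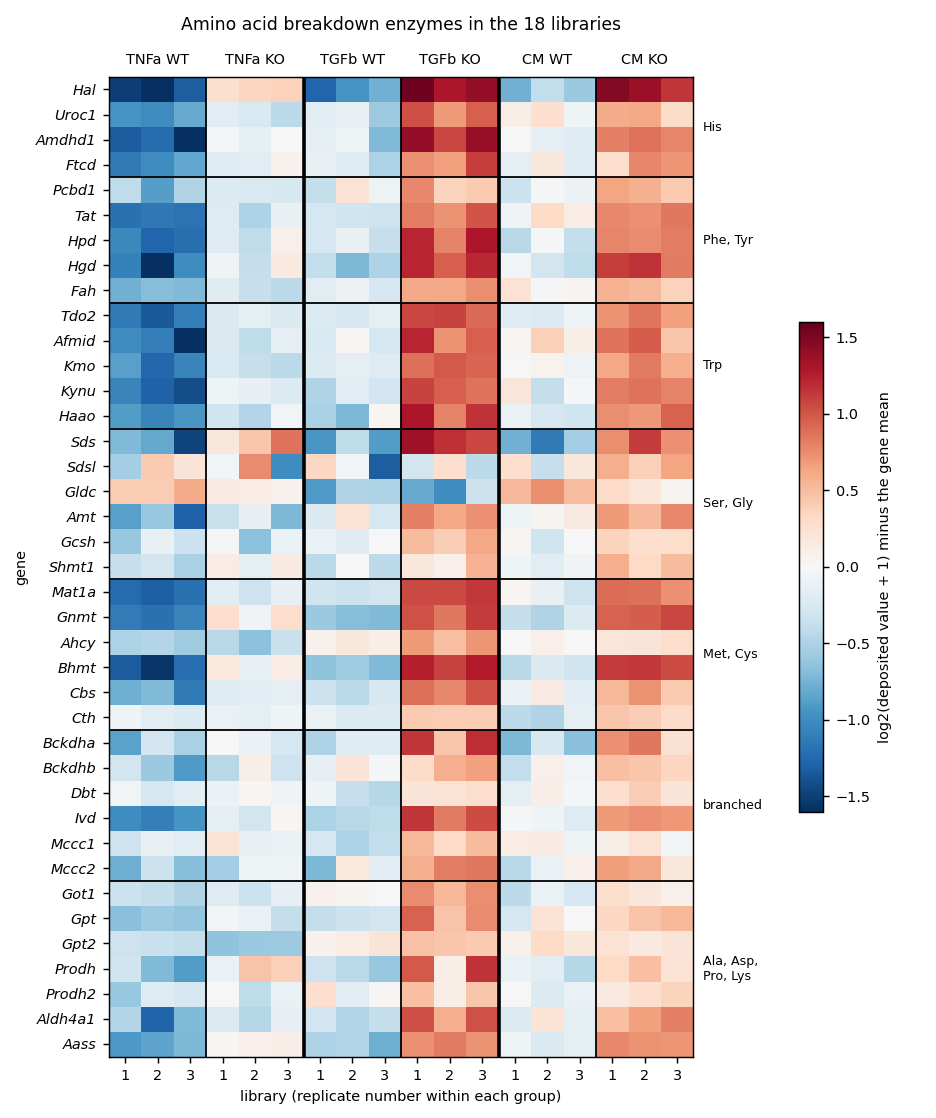
Heat map of the 39 genes (vertical, by substrate group) in the 18 libraries (horizontal, by group and replicate), each cell the log2(deposited value + 1) minus the mean of that gene over the 18 libraries, with red above and blue below the gene's mean. The TNFa WT libraries hold the lowest group mean for 33 of 39 genes and the TGFb KO libraries the highest for 34, and the Gldc line runs differently from the lines around it.

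The same groups were lowest and highest for most members, while the order of the groups between them varied. The lowest group mean was that of WT with TNFa for 33 members (17.2% of all genes), and the highest that of KO with TGFb for 34 (20.2%). The KO difference was above 0 with all 3 treatments for 36 members (20.8% of all genes), and it passed the test upward in each of the 3 for 20 members (1.93%): all 4 of histidine, Tat, Hpd, Hgd and Fah, Tdo2, Kmo, Kynu and Haao, Sds, Mat1a, Gnmt, Bhmt and Cbs, Ivd, and Aldh4a1 and Aass. A further 7 passed upward with TGFb and CM (Pcbd1, Amt, Shmt1, Cth, Bckdha, Got1 and Gpt), 2 with TNFa and TGFb (Afmid and Prodh), and 5 with TGFb alone (Gcsh, Ahcy, Dbt, Mccc1 and Mccc2). Gpt2 passed downward with TNFa and upward with TGFb, though neither call was kept under the scaling to hepatocyte markers. That scaling also lost the CM calls of Uroc1, Ftcd, Fah, Cbs and Aldh4a1, and some calls of members that passed with fewer treatments. Sdsl, Gldc, Bckdhb and Prodh2 passed with no single treatment. Among all 14455 genes ranked by p in the averaged comparison, Bhmt was at place 5, Hal 8, Gnmt 10, Mat1a 14 and Tdo2 25.

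**Figure D2:**
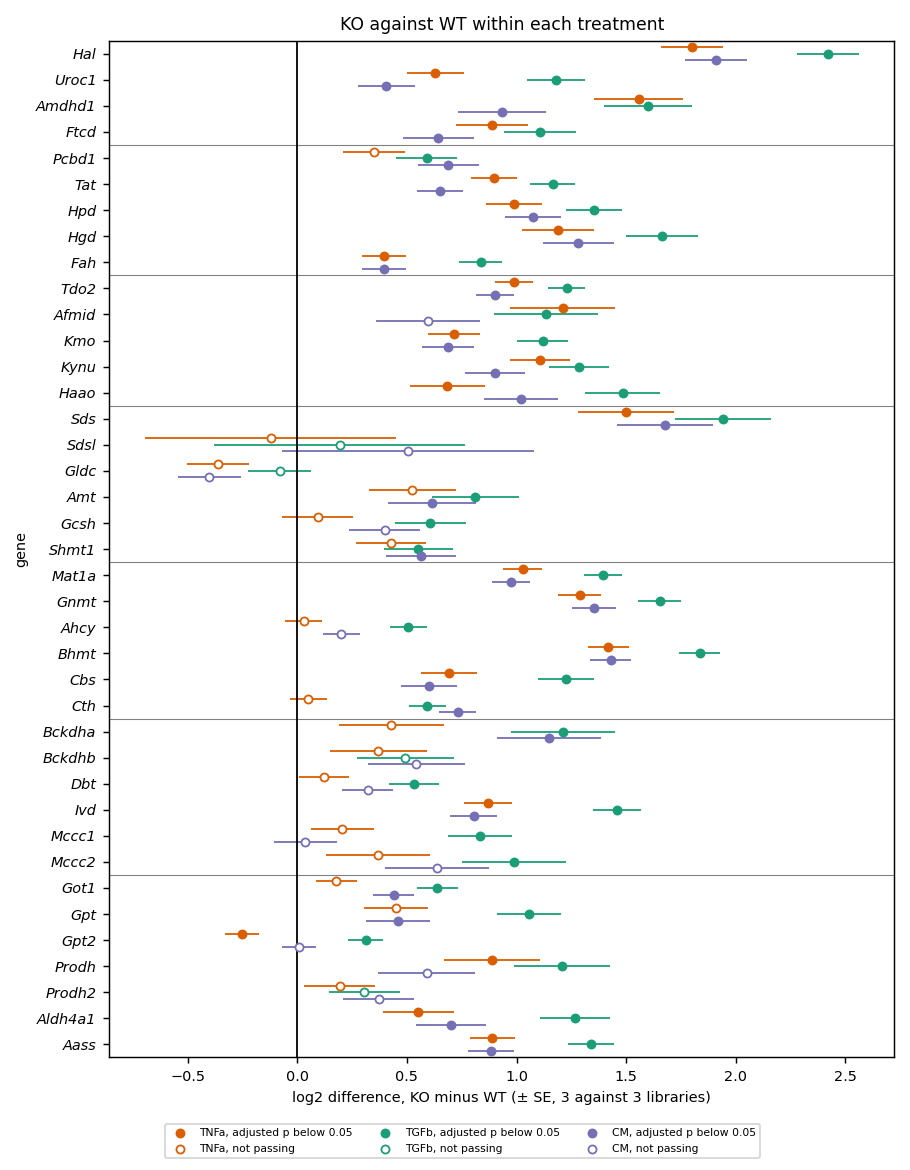
Log2 difference KO minus WT (horizontal, 3 against 3 libraries, ± SE of the fit to all 18 libraries) for each of the 39 genes (vertical), with 1 point per treatment, filled where the adjusted p is below 0.05. The TGFb point is the rightmost for 32 of 39 genes, Hal reaches 2.42, and Gldc and, with TNFa, Gpt2 and Sdsl lie left of 0.

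The promoters of 4 members are shown, 3 from genes that rose and 1 from a gene that fell in the comparison averaged over treatments. Hal, Bhmt and Gnmt rose in every treatment and are among the 10 genes with the smallest averaged p, and Gldc is the member that fell on average. RefSeq promoter entries (GRCm38.p6, a build that differs from the mm39 of the expression table) matched 32 of the 39 members by symbol, as 33 entries, and the 250 bases before the start of each gene were searched on both strands. Capitals mark CCAAT or TATAAA on either strand, so that ATTGG and TTTATA are the same motifs read from the other strand.
Hal (chr10:93488518-93488767, plus strand): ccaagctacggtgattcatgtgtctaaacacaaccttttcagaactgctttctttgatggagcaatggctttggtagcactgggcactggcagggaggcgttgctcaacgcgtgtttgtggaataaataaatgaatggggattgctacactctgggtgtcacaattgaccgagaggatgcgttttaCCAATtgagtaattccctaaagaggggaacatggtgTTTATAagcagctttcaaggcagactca
Bhmt (chr13:93637759-93638008, minus strand): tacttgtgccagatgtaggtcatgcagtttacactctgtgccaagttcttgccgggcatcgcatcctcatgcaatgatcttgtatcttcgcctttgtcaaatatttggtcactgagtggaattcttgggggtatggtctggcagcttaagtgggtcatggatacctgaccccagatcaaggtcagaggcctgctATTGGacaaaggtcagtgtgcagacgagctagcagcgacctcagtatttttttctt
Gnmt (chr17:46729166-46729415, minus strand): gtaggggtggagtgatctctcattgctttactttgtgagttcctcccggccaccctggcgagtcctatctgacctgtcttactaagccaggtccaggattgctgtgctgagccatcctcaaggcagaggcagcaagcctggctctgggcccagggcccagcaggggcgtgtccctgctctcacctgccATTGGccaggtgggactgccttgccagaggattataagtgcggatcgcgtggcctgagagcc
Gldc (chr19:30175442-30175691, minus strand): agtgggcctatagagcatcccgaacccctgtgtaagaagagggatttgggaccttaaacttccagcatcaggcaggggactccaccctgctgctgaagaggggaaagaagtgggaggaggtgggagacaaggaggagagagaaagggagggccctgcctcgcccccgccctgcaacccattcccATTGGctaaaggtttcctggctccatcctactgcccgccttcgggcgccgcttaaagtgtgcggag
In these 4 windows a CCAAT match begins 64, 56, 62 and 66 bases before the start, in the order shown, and Hal also has a TATAAA match at 28 bases. CCAAT was present in 21 of 33 member entries (63.6%) and in 33.8% of all 32851 entries of that length, and TATAAA in 5 (15.2%) against 12.4%. Gldc carries the CCAAT match as the 3 risers shown do. Not all risers have it: Amdhd1, Fah, Haao, Hpd and Kmo, for instance, have no CCAAT match in their windows. The other motifs searched were GTTAAT (15.2% of member entries against 6.43% of all), CAAAGG (12.1% against 17.6%), CACGTG (6.06% against 6.02%), TGTTCT (6.06% against 16.1%), TGACGT (3.03% against 6.47%) and TTGCNNCAA (3.03% against 1.74%), while CAAAGTCCA and TGTTTAC matched no member entry (0.384% and 3.17% of all). CAAAGG and CAAAGTCCA share their first letters, but neither contains the other. These are matches of letters in a window and describe no binding.

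Histidine breakdown held the largest single difference among the members, and all 4 of its enzymes rose with every treatment. Hal, histidine ammonia-lyase, opens the pathway by making urocanate, and its gene lies on chromosome 10, 93324630 to 93355167 of mm39, plus strand (ENSMUSG00000020017). Hal measured 287, 267 and 329 with TNFa, 338, 422 and 479.7 with TGFb and 482, 623 and 543 with CM in WT libraries. In KO libraries it measured 979, 1039 and 1056 with TNFa, 2414, 2008 and 2175 with TGFb and 2267, 2121 and 1811 with CM. KO and WT did not overlap, and even the lowest KO value, with TNFa, was above the highest WT value of any treatment. The ratio of KO to WT means was 3.48, 5.32 and 3.76 with TNFa, TGFb and CM, and the log2 differences were 1.80 ± 0.14 with TNFa, 2.42 ± 0.14 with TGFb and 1.91 ± 0.14 with CM (adjusted p = 2.4e-10, 2.2e-13 and 5.8e-11).

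Amdhd1, imidazolonepropionase, works 2 steps further down. Its gene ends 4.03 kb from the end of Hal on the opposite strand. Amdhd1 values in WT were 213, 229 and 110.4 with TNFa, 486, 512 and 331 with TGFb and 537, 489 and 472 with CM. The KO values were 529, 487 and 541 with TNFa, 1430.0, 1132 and 1428 with TGFb and 947, 986 and 929 with CM. The WT libraries with TNFa were the lowest, and KO and WT did not overlap within any treatment. Amdhd1 rose by 1.56 ± 0.20 with TNFa, 1.60 ± 0.20 with TGFb and 0.93 ± 0.20 with CM (adjusted p = 3e-06, 8e-07 and 0.0022). Uroc1, urocanate hydratase, stands between Hal and Amdhd1 in the pathway. Uroc1 in WT was at 726, 692 and 798 with TNFa, 1232, 1284 and 929 with TGFb and 1485, 1681 and 1327 with CM, and in KO at 1223, 1172 and 1037 with TNFa, 2841, 2229.6 and 2707 with TGFb and 2106, 2141 and 1708 with CM. The CM groups were apart by less than the TGFb groups, though they did not overlap either. Uroc1 differences were 0.63 ± 0.13 with TNFa, 1.18 ± 0.13 with TGFb and 0.41 ± 0.13 with CM (adjusted p = 0.0019, 8.8e-08 and 0.047). Ftcd, which hands the last carbon fragment of histidine to tetrahydrofolate, ranged from 300.3 to 746 in WT and from 573 to 1422 in KO libraries, and rose by 0.89 ± 0.16 with TNFa, 1.11 ± 0.16 with TGFb and 0.64 ± 0.16 with CM. The CM call of Uroc1 was lost without CM WT replicate 1 or 3 or CM KO replicate 1 or 2 (0.32 to 0.40, adjusted p = 0.11 to 0.19), and that of Ftcd without CM KO replicate 2 or 3 (0.55 to 0.59, adjusted p = 0.052 to 0.07).

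**Figure D3:**
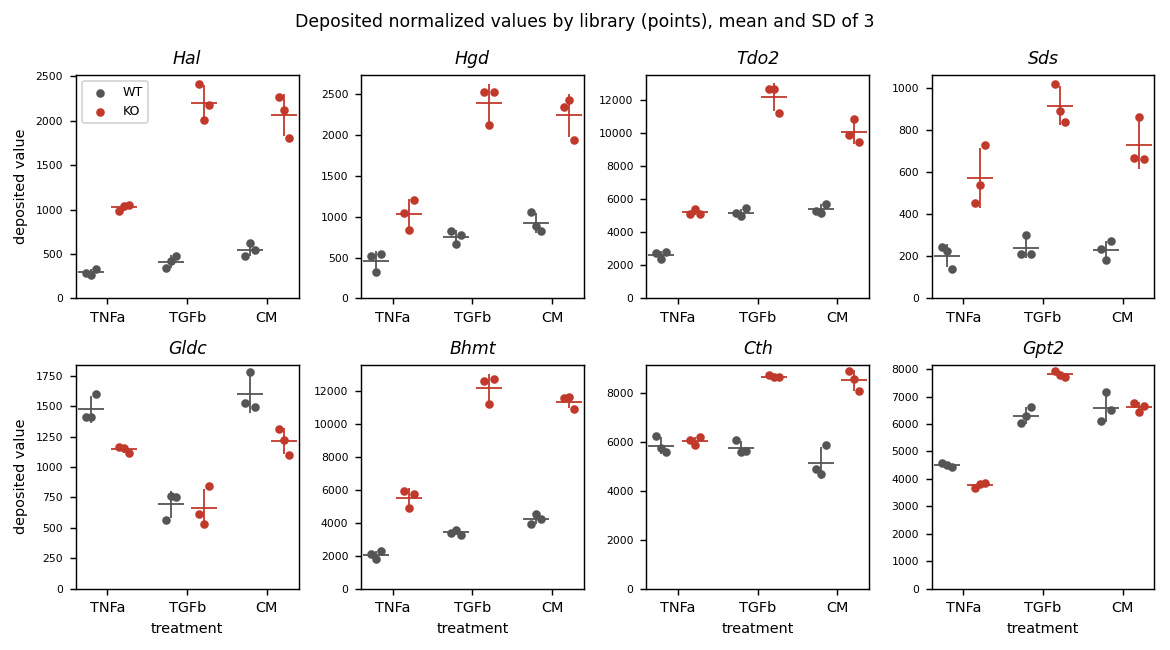
Deposited normalized values (vertical, linear, from 0) of 8 genes in each library (points), by treatment (horizontal) and genotype (WT grey, KO red), with mean and SD of the 3 libraries. Hal, Hgd, Tdo2, Sds and Bhmt have all KO points above all WT points of the same treatment, Gldc has KO points below WT points with TNFa and CM, Cth separates with TGFb and CM, and Gpt2 is lower in KO with TNFa and higher with TGFb (the latter not when libraries are scaled to an equal sum of hepatocyte markers).

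The route from phenylalanine and tyrosine to fumarate and acetoacetate rose along its length. All 5 members passed with TGFb and CM, and 4 passed with TNFa. Tat, tyrosine aminotransferase, starts tyrosine breakdown. In WT libraries Tat was at 1128, 1174 and 1141 with TNFa, 2122, 2065 and 2052 with TGFb and 2492, 3233 and 2805 with CM. In KO libraries it was at 2234, 1836 and 2388 with TNFa, 4577, 4256 and 5203 with TGFb and 4392, 4306 and 4626 with CM. WT libraries with CM were above all KO libraries with TNFa, and the KO libraries with TGFb and CM were the highest. Tat rose by 0.90 ± 0.10 with TNFa, 1.16 ± 0.10 with TGFb and 0.65 ± 0.10 with CM (adjusted p = 4.6e-07, 1.4e-09 and 6.5e-05).

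Hpd, hydroxyphenylpyruvate dioxygenase, follows Tat. Hpd was at 1229.8, 1041 and 1088 with TNFa, 2074, 2315 and 1934 with TGFb and 1842, 2445 and 1920.2 with CM in WT and at 2176, 1889 and 2646 with TNFa, 5838, 4333 and 6121 with TGFb and 4313, 4218 and 4435 with CM in KO libraries. KO means were 2.58 and 2.09 times the WT means with TGFb and CM, and the differences were 0.99 ± 0.13 with TNFa, 1.35 ± 0.13 with TGFb and 1.07 ± 0.13 with CM (adjusted p = 2.8e-06, 3.7e-09 and 5.4e-07). Hgd, homogentisate dioxygenase, comes next and had the largest difference of this route. Hgd read 516, 319 and 542 with TNFa, 829, 661 and 775 with TGFb and 1057, 888 and 819 with CM in WT libraries. The KO libraries read 1044, 839 and 1209 with TNFa, 2529, 2118 and 2525 with TGFb and 2348, 2431 and 1943 with CM. The lowest WT value, in TNFa replicate 2, was well under its 2 companions, and the KO values with TGFb and CM overlapped. The Hgd differences were 1.19 ± 0.16 with TNFa, 1.66 ± 0.16 with TGFb and 1.28 ± 0.16 with CM (adjusted p = 8.1e-06, 8.2e-09 and 1.8e-06).

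Fah, fumarylacetoacetase, closes the route. Its WT values were 1091, 1162 and 1143 with TNFa, 1663, 1742 and 1544 with TGFb and 2189, 1847 and 1930.1 with CM, and its KO values 1636, 1451 and 1393 with TNFa, 2838, 2862 and 3134 with TGFb and 2738, 2685 and 2414 with CM. Groups of the same treatment did not overlap, the KO to WT ratios of means were 1.32, 1.79 and 1.31 with TNFa, TGFb and CM, and the differences were 0.40 ± 0.10 with TNFa, 0.84 ± 0.10 with TGFb and 0.40 ± 0.10 with CM (adjusted p = 0.0098, 2.9e-07 and 0.0086). Without TNFa KO replicate 1 the Fah call with TNFa was lost (0.33, adjusted p = 0.079), and without CM WT replicate 2 or CM KO replicate 1 that with CM (0.34 to 0.36, adjusted p = 0.053 to 0.055). Pcbd1, which regenerates tetrahydrobiopterin and also binds the factor HNF1, ranged from 838 to 1811 in WT and from 1298 to 2634 in KO libraries. It did not pass with TNFa (0.35 ± 0.14, adjusted p = 0.13) and rose with TGFb (0.59 ± 0.14) and CM (0.69 ± 0.14). The TGFb call of Pcbd1 was lost without TGFb WT replicate 1 or TGFb KO replicate 1 (0.44 to 0.46, adjusted p = 0.053 to 0.058).

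The enzymes of the kynurenine pathway of tryptophan rose together. All 5 members passed with TNFa and TGFb, and 4 of them with CM. Tdo2, tryptophan dioxygenase, the first and rate-limiting enzyme of this pathway in liver, lies on chromosome 3, 81864397 to 81883510 of mm39, minus strand (ENSMUSG00000028011). Tdo2 measured 2748, 2356 and 2819.6 with TNFa, 5144, 4985 and 5447 with TGFb and 5261, 5162 and 5733 with CM in WT. In KO it measured 5106, 5428 and 5129 with TNFa, 12649, 12674 and 11212 with TGFb and 9862, 10861 and 9480.0 with CM. The KO values with TNFa lay within the range of the WT values with TGFb and CM, and the KO values with TGFb and CM were the highest of all. The KO to WT ratio was 1.98, 2.35 and 1.87 and the differences were 0.99 ± 0.09 with TNFa, 1.23 ± 0.09 with TGFb and 0.90 ± 0.09 with CM (adjusted p = 2.1e-09, 6.8e-12 and 9.3e-09).

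Kmo, kynurenine monooxygenase, and Kynu, kynureninase, act on kynurenine and its hydroxylated product. Kmo was at 555, 422 and 484 with TNFa, 873, 915 and 875 with TGFb and 1006, 1055 and 957 with CM in WT and 857, 786 and 749 with TNFa, 1862, 2004 and 1923 with TGFb and 1561, 1794 and 1519 with CM in KO libraries. It rose by 0.72 ± 0.12 with TNFa, 1.12 ± 0.12 with TGFb and 0.69 ± 0.12 with CM (adjusted p = 0.00011, 3.2e-08 and 0.00015). Kynu was at 432, 366 and 336 with TNFa, 642, 800.0 and 724 with TGFb and 1023, 689 and 876 with CM in WT and 848, 818 and 769.9 with TNFa, 1898, 1735 and 1638 with TGFb and 1582, 1638 and 1554 with CM in KO libraries. Both genes were lowest in WT with TNFa, and KO and WT did not overlap within a treatment. Kynu rose by 1.11 ± 0.14 with TNFa, 1.29 ± 0.14 with TGFb and 0.90 ± 0.14 with CM (adjusted p = 1.3e-06, 4.2e-08 and 3e-05). Haao, hydroxyanthranilate dioxygenase, ranged from 301 to 640.2 in WT and from 453 to 1537 in KO, with differences of 0.68 ± 0.17 with TNFa, 1.48 ± 0.17 with TGFb and 1.02 ± 0.17 with CM. Its TNFa call was lost without TNFa KO replicate 3 (0.57, adjusted p = 0.068). Afmid, the formamidase that makes free kynurenine, ranged from 81.5 to 521 in WT and from 303 to 933 in KO. It rose with TNFa (1.21 ± 0.24) and TGFb (1.13 ± 0.24) and did not pass with CM (0.60 ± 0.24, adjusted p = 0.12). In the table's annotation Afmid overlaps Gm20708 on its own strand and Tk1 on the opposite one, Kmo overlaps Fh1 and Hpd overlaps Psmd9, both on the opposite strand, and whether reads were counted by strand is not given, so shared reads cannot be told apart.

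The enzymes for serine and glycine did not move together. Of 6 members, 4 rose with TGFb, 3 with CM and 1 with TNFa, and none fell within a treatment. Sds, serine dehydratase, which turns serine into pyruvate, lies on chromosome 5, 120614591 to 120621998 of mm39, plus strand (ENSMUSG00000029597). Sds was at 244, 226 and 142 with TNFa, 209, 299 and 213 with TGFb and 234, 181 and 272 with CM in WT libraries. It was at 453, 540.4 and 731 with TNFa, 1022, 893 and 839 with TGFb and 669, 865 and 663 with CM in KO libraries. The 9 WT values stayed between 142 and 299.5 and overlapped between treatments, and every KO value was above them. Sds rose by 1.50 ± 0.22 with TNFa, 1.94 ± 0.22 with TGFb and 1.68 ± 0.22 with CM (adjusted p = 2.2e-05, 1.2e-07 and 2.6e-06), so that its KO means were 2.82, 3.81 and 3.19 times the WT means. Its neighbor Sdsl, serine dehydratase-like, starts 3.71 kb away on the opposite strand and ranged from 13.7 to 47.8 in WT and from 17.4 to 60.9 in KO. Sdsl passed with no treatment, and its interval is wide (-0.49 to 0.87 for the averaged difference).

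Glycine is split in mitochondria by a complex of which Gldc is the decarboxylase, Amt the aminomethyltransferase and Gcsh the lipoyl-bearing carrier. Gldc ran against most other members. In WT libraries Gldc measured 1416, 1411 and 1604 with TNFa, 567, 762 and 752 with TGFb and 1527, 1779.7 and 1498 with CM. In KO libraries it measured 1170.0, 1158 and 1115 with TNFa, 611, 533 and 842 with TGFb and 1315, 1223 and 1099 with CM. KO values lay below WT values with TNFa and CM without overlap, and the TGFb groups overlapped. Within a treatment no Gldc difference passed (-0.36 ± 0.14 with TNFa, -0.08 ± 0.14 with TGFb and -0.40 ± 0.14 with CM, adjusted p = 0.12, 0.8 and 0.077), but averaged over treatments it fell (-0.28 ± 0.08, adjusted p = 0.013). Amt was at 202, 244 and 151 with TNFa, 317, 437 and 305 with TGFb and 354, 384 and 409 with CM in WT and 291, 339 and 226 with TNFa, 648, 573 and 618 with TGFb and 595, 532 and 631 with CM in KO libraries. Amt overlapped between genotypes with TNFa. The Amt differences were 0.52 ± 0.20 with TNFa, 0.81 ± 0.20 with TGFb and 0.61 ± 0.20 with CM (adjusted p = 0.11, 0.0054 and 0.049), and the CM call was lost on leaving out any 1 of the 6 CM libraries (0.56 to 0.68, adjusted p = 0.06 to 0.16). Gcsh ranged from 412 to 638 in WT and from 397 to 962 in KO and rose with TGFb alone (0.61 ± 0.16), a call lost without TGFb WT replicate 2 or TGFb KO replicate 3 (0.55 to 0.56, adjusted p = 0.053 to 0.055).

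Shmt1, the cytosolic enzyme that interconverts serine and glycine, was at 443, 466 and 399.8 with TNFa, 424, 574 and 426 with TGFb and 546, 507 and 552 with CM in WT and 623, 512 and 631 with TNFa, 649, 603 and 838 with TGFb and 859.6, 712 and 809 with CM in KO libraries. KO and WT did not overlap with any treatment, though the distances were short. The Shmt1 differences were 0.43 ± 0.16 with TNFa, 0.55 ± 0.16 with TGFb and 0.56 ± 0.16 with CM (adjusted p = 0.1, 0.019 and 0.02). The TGFb call was lost without TGFb WT replicate 1 or 3 or TGFb KO replicate 3 (0.41 to 0.48, adjusted p = 0.095 to 0.15), and the CM call without CM WT replicate 2 or CM KO replicate 1 or 3 (0.50 to 0.55, adjusted p = 0.068 to 0.1). The gene models of Sds and Shmt1 overlap Plbd2 and Smcr8 on the opposite strand.

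In the methionine cycle the enzymes that make S-adenosylmethionine (Mat1a), spend it (Gnmt) and remake methionine (Bhmt) rose with every treatment, as did Cbs. Cth passed with TGFb and CM and Ahcy with TGFb. Mat1a, the adult liver methionine adenosyltransferase that makes S-adenosylmethionine, measured 9521, 9043 and 9723 with TNFa, 17842, 17638 and 18259 with TGFb and 22769.5, 20475 and 17729 with CM in WT. In KO it measured 19706, 17685 and 20370.3 with TNFa, 46364, 46298 and 48725 with TGFb and 41329.6, 40960.5 and 37114 with CM. Mat1a rose by 1.03 ± 0.09 with TNFa, 1.40 ± 0.09 with TGFb and 0.98 ± 0.09 with CM (adjusted p = 1.3e-09, 7e-13 and 2.8e-09), with KO means 2.04, 2.63 and 1.96 times the WT means. Gnmt, glycine N-methyltransferase, uses up S-adenosylmethionine and glycine. Gnmt was at 1298, 1224 and 1349 with TNFa, 1868, 1749 and 1718 with TGFb and 2153, 2009.5 and 2406 with CM in WT and 3387, 2712 and 3399.6 with TNFa, 5683, 5024 and 6118 with TGFb and 5383, 5485 and 5872 with CM in KO libraries. KO values with TGFb and CM were close to each other, and KO values with TNFa were above all WT values. The Gnmt differences were 1.29 ± 0.10 with TNFa, 1.65 ± 0.10 with TGFb and 1.35 ± 0.10 with CM (adjusted p = 2.1e-10, 3.5e-13 and 5.8e-11).

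Bhmt, which remakes methionine from homocysteine with betaine, had the smallest p of all members in the averaged comparison and lies on chromosome 13, 93753183 to 93774470 of mm39, minus strand (ENSMUSG00000074768). Bhmt read 2111, 1798 and 2274 with TNFa, 3389, 3559 and 3253 with TGFb and 3884, 4504 and 4240.1 with CM in WT libraries. The KO libraries read 5929.6, 4862 and 5727 with TNFa, 12562, 11176 and 12723 with TGFb and 11518, 11590.3 and 10883 with CM. Every KO value, TNFa included, was above every WT value. Bhmt rose by 1.42 ± 0.09 with TNFa, 1.84 ± 0.09 with TGFb and 1.43 ± 0.09 with CM (adjusted p = 7.6e-12, 1.3e-14 and 6.2e-12), that is 2.67, 3.57 and 2.69 times the WT means. Ahcy, which splits S-adenosylhomocysteine, was at 11943, 12276 and 11506 with TNFa, 17801, 19326 and 18342 with TGFb and 17094, 17956 and 16902 with CM in WT and 12449.7, 10826 and 13277 with TNFa, 27288, 23826 and 27801 with TGFb and 19404, 19556 and 20704 with CM in KO libraries. Ahcy overlapped between genotypes with TNFa, did not pass with CM, and rose with TGFb (0.03 ± 0.08 with TNFa, 0.51 ± 0.08 with TGFb and 0.20 ± 0.08 with CM, adjusted p = 0.9, 5.9e-05 and 0.15). A gene of like name, Ahcyl on chromosome 16, was listed at 87.1 to 1181, and how reads shared between copies were assigned is not given.

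Homocysteine leaves the cycle through Cbs and Cth, which build cysteine. Cbs ranged from 449 to 1081 in WT and from 855 to 1986 in KO libraries and rose with each treatment (0.69 ± 0.13 with TNFa, 1.23 ± 0.13 with TGFb and 0.60 ± 0.13 with CM). Cth, the second enzyme, was at 6233, 5738 and 5604 with TNFa, 6065, 5599 and 5628 with TGFb and 4900.0, 4672 and 5890.2 with CM in WT libraries. It was at 6077, 5890.3 and 6201 with TNFa, 8742, 8649 and 8666 with TGFb and 8906, 8599 and 8080.3 with CM in KO libraries. With TNFa the genotypes overlapped, and with TGFb and CM all KO values were above the WT values of every treatment. The Cth differences were 0.05 ± 0.08 with TNFa, 0.59 ± 0.08 with TGFb and 0.73 ± 0.08 with CM (adjusted p = 0.81, 6.2e-06 and 3.4e-07).

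In branched-chain breakdown 5 of 6 members rose with TGFb, 1 with TNFa and 2 with CM, and all 6 rose on average. Bckdha and Bckdhb encode the decarboxylase subunits and Dbt the transacylase core of the mitochondrial branched-chain ketoacid dehydrogenase. Bckdha was at 145, 213 and 184 with TNFa, 187, 229 and 231 with TGFb and 159, 220.4 and 165 with CM in WT and 261, 247 and 216 with TNFa, 579, 358 and 595 with TGFb and 436, 471 and 310.1 with CM in KO libraries. TGFb KO replicate 2 was far below its 2 companions but still above the WT libraries. The Bckdha differences were 0.43 ± 0.24 with TNFa, 1.21 ± 0.24 with TGFb and 1.15 ± 0.24 with CM (adjusted p = 0.32, 0.00053 and 0.0015). Dbt was at 1207, 1029 and 1100.2 with TNFa, 1192, 968 and 909.5 with TGFb and 1113, 1343 and 1219 with CM in WT and 1164, 1268 and 1195 with TNFa, 1435, 1467 and 1514 with TGFb and 1502, 1643 and 1439 with CM in KO libraries, and passed with TGFb alone (0.12 ± 0.11 with TNFa, 0.53 ± 0.11 with TGFb and 0.32 ± 0.11 with CM, adjusted p = 0.61, 0.0014 and 0.08). Bckdhb ranged from 142 to 308 in WT and from 196 to 420.0 in KO and passed only in the averaged comparison (0.47 ± 0.13, adjusted p = 0.0077).

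Ivd, isovaleryl-CoA dehydrogenase of the leucine branch, was the member that rose with all 3 treatments. Ivd was at 689, 644 and 714 with TNFa, 972, 1009 and 1038 with TGFb and 1348, 1308 and 1193 with CM in WT libraries. It was at 1229.6, 1121 and 1404 with TNFa, 3038, 2456 and 2844 with TGFb and 2204, 2281 and 2229 with CM in KO libraries. KO and WT did not overlap within a treatment. Ivd rose by 0.87 ± 0.11 with TNFa, 1.46 ± 0.11 with TGFb and 0.80 ± 0.11 with CM (adjusted p = 1.5e-06, 2.3e-11 and 4.4e-06). The next enzyme of leucine, methylcrotonyl-CoA carboxylase, has the subunits Mccc1 and Mccc2. Mccc1 was at 467, 541 and 524 with TNFa, 487, 417 and 449.9 with TGFb and 639.9, 642 and 559.7 with CM in WT and 683, 541 and 549 with TNFa, 851, 725 and 840.3 with TGFb and 627, 692 and 573 with CM in KO libraries, and it separated with TGFb (0.83 ± 0.15, adjusted p = 0.00011) but did not pass with TNFa (0.21 ± 0.15) or CM (0.04 ± 0.15). Mccc2 ranged from 160.3 to 310.0 in WT and from 189 to 493 in KO and passed with TGFb (0.99 ± 0.24), a call lost without TGFb WT replicate 1 (0.75, adjusted p = 0.054). The Bckdha model overlaps B3gnt8 on the opposite strand.

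Of the 7 enzymes for alanine, aspartate, proline and lysine, 6 rose with TGFb, 4 with CM and 3 with TNFa, while Gpt2 fell with TNFa. Aass, the double enzyme that opens lysine breakdown, was at 725, 767 and 835 with TNFa, 976, 992 and 801 with TGFb and 1294, 1174 and 1235 with CM in WT libraries. It was at 1387, 1446 and 1476 with TNFa, 2282, 2443 and 2260.4 with TGFb and 2339, 2252 and 2248 with CM in KO libraries. Replicates lay close together and KO was above WT throughout. Aass rose by 0.89 ± 0.10 with TNFa, 1.34 ± 0.10 with TGFb and 0.89 ± 0.10 with CM (adjusted p = 5.5e-07, 7.4e-11 and 5.1e-07). Aldh4a1, which oxidises the product of proline and hydroxyproline to glutamate and its hydroxy analog, was at 877, 499 and 748 with TNFa, 984, 878 and 932 with TGFb and 1043, 1415 and 1105 with CM in WT and 1044, 889 and 1113 with TNFa, 2488, 1820.0 and 2477 with TGFb and 1707, 1922 and 2138 with CM in KO libraries. TNFa WT replicate 2 was far below the 2 others of its group. The Aldh4a1 differences were 0.55 ± 0.16 with TNFa, 1.27 ± 0.16 with TGFb and 0.70 ± 0.16 with CM (adjusted p = 0.029, 8.9e-07 and 0.0038), and the TNFa call was lost without TNFa WT replicate 2 or TNFa KO replicate 1 or 3 (0.32 to 0.53, adjusted p = 0.09 to 0.25). The model of Aldh4a1 shares its strand with Gm21969, listed at up to 11.7.

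Prodh, proline dehydrogenase, ranged from 219 to 381 in WT and from 380.2 to 911 in KO and rose with TNFa (0.89 ± 0.22) and TGFb (1.21 ± 0.22), the first a call lost without TNFa WT replicate 3 or TNFa KO replicate 2 (0.76 to 0.78, adjusted p = 0.059 to 0.067). Its model overlaps Dgcr6 on the opposite strand. Prodh2, which acts on hydroxyproline, ranged from 378 to 698 in WT and from 435 to 808 in KO and passed only on average (0.29 ± 0.09, adjusted p = 0.024). That call was lost without TNFa WT replicate 1, TNFa KO replicate 1, TGFb WT replicate 2 or TGFb KO replicate 1 (0.25 to 0.27, adjusted p = 0.054 to 0.064).

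The aminotransferases that exchange nitrogen between alanine, aspartate and glutamate had differences below the median of the members with each treatment. Got1, cytosolic aspartate aminotransferase, was at 2565, 2503 and 2335 with TNFa, 3419, 3374 and 3258 with TGFb and 2441, 3038 and 2708 with CM in WT and 2833, 2572 and 2979 with TNFa, 5533, 4712 and 5442 with TGFb and 3955, 3683 and 3439.6 with CM in KO libraries. It rose with TGFb and CM (0.18 ± 0.09 with TNFa, 0.64 ± 0.09 with TGFb and 0.44 ± 0.09 with CM, adjusted p = 0.3, 1.1e-05 and 0.0021). Gpt, the cytosolic alanine aminotransferase used as a serum marker of liver injury, was at 469, 497 and 479.9 with TNFa, 571, 589 and 606 with TGFb and 611, 871 and 749 with CM in WT and 724, 694 and 569 with TNFa, 1433, 1019 and 1255 with TGFb and 936, 1025 and 1081 with CM in KO libraries. Gpt rose with TGFb and CM (0.45 ± 0.15 with TNFa, 1.06 ± 0.15 with TGFb and 0.46 ± 0.15 with CM, adjusted p = 0.054, 3.8e-06 and 0.043), and the CM call was lost on leaving out any 1 of the CM libraries other than WT replicate 2 (0.33 to 0.52, adjusted p = 0.061 to 0.25). Gpt lies on chromosome 15, as Mtdh does, 42.4 Mb from it.

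Gpt2, the mitochondrial alanine aminotransferase, took opposite directions. In WT libraries Gpt2 measured 4568, 4491 and 4436 with TNFa, 6030.3, 6279 and 6617 with TGFb and 6105, 7177 and 6512 with CM. In KO libraries it measured 3672, 3825 and 3834 with TNFa, 7948, 7805 and 7713 with TGFb and 6769, 6441 and 6670.1 with CM. The groups separated downward with TNFa, separated upward with TGFb and overlapped with CM. The Gpt2 differences were -0.25 ± 0.08 with TNFa, 0.31 ± 0.08 with TGFb and 0.01 ± 0.08 with CM (adjusted p = 0.041, 0.0062 and 0.97). The fall with TNFa was lost on leaving out any 1 of the 6 TNFa libraries (-0.26 to -0.23, adjusted p = 0.076 to 0.14), and the rise with TGFb turned to -0.15 when libraries were scaled to an equal sum of hepatocyte markers.

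Whether the KO difference itself depended on the treatment was tested with an F-test of the interaction. It passed for 4 of 39 members (1.70% of all genes): Cth (adjusted p = 0.0041), Gpt2 (0.016), Ivd (0.028) and Uroc1 (0.049). For Cth the difference was near 0 with TNFa and positive with TGFb and CM, with a change of -0.54 ± 0.12 for TNFa minus TGFb (adjusted p = 0.02, 1.10% of all genes passing) and of 0.68 ± 0.12 for CM minus TNFa (adjusted p = 0.0045, 0.630%). Gpt2 (-0.56 ± 0.11, adjusted p = 0.0075) and Ahcy (-0.48 ± 0.12, adjusted p = 0.044; F-test adjusted p = 0.066, not passing) also had a smaller KO difference with TNFa than with TGFb. Uroc1 (-0.78 ± 0.18, adjusted p = 0.049) and Ivd (-0.66 ± 0.15, adjusted p = 0.046) had a smaller one with CM than with TGFb (0.491% of all genes passing). The KO difference was highest with TGFb for 32 of 39 members (32.4% of all genes) and, among the genes higher in KO on average, for 30 of 36 members (51.1%). For the other 35 members the F-test did not pass, which does not show that their differences were equal. The count of 4 became 7 without CM WT replicate 3 and 1 without TGFb WT replicate 1. Without TNFa WT replicate 1 or 3, TNFa KO replicate 1, TGFb WT replicate 3, TGFb KO replicate 1 or 3, or any CM KO replicate it was 2.

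Among WT hepatocytes, most members were lower with TNFa than with TGFb or CM in the values as deposited. Counts under the scaling to hepatocyte markers are given below. Against TGFb, 23 of 39 were lower with TNFa and 1 (Gldc) was higher, with a median of -0.51 (all genes: 8.06% lower, 5.33% higher, 13.4% either, median 0.00). Against TNFa, 25 were higher with CM and none lower, with a median of 0.73 (6.81% higher, 5.46% lower, 12.3% either, median 0.04). CM and TGFb differed for fewer: 7 were higher and 1 lower with CM, with a median of 0.21 (5.76% higher, 6.09% lower, 11.8% either, median 0.02). All members for histidine, for phenylalanine and tyrosine, and for tryptophan passed in the first 2 of these comparisons, as against 1 of 6 for branched-chain amino acids in each.

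The genes with the smallest p-values for TNFa against TGFb in WT were Tdo2 (-0.98 ± 0.09, adjusted p = 1.2e-09), Mat1a (-0.93 ± 0.09), Tat (-0.86 ± 0.10), Gldc (1.10 ± 0.14), Bhmt (-0.73 ± 0.09), Ahcy (-0.63 ± 0.08), Kmo (-0.87 ± 0.12) and Hpd (-0.91 ± 0.13), all with TNFa minus TGFb. The library values given above show that none of these 8 overlapped between the TNFa and TGFb libraries of WT. For CM against TNFa in WT they were Mat1a (1.10 ± 0.09, adjusted p = 3.9e-10), Tat (1.30 ± 0.10), Tdo2 (1.03 ± 0.09), Bhmt (1.03 ± 0.09), Kmo (1.05 ± 0.12), Kynu (1.18 ± 0.14), Ivd (0.91 ± 0.11) and Fah (0.81 ± 0.10). These 2 comparisons share the TNFa WT libraries. For CM against TGFb in WT, Gldc led (1.21 ± 0.14, adjusted p = 3.1e-07), followed by Tat (0.44 ± 0.10), Aass (0.42 ± 0.10), Bhmt (0.31 ± 0.09), Ivd (0.35 ± 0.11), Got1 (-0.30 ± 0.09), Mccc1 (0.44 ± 0.15) and Uroc1 (0.39 ± 0.13). Gldc had its lowest WT values with TGFb, with a mean of 694 ± 109.8 (SD, n = 3) against 1602 ± 155 with CM. The 8 calls of this last comparison became 3 without TGFb WT replicate 3, 4 without TGFb WT replicate 1, and 5 without TGFb WT replicate 2, CM WT replicate 1 or CM WT replicate 2. Scaled to an equal sum of hepatocyte markers, the 3 comparisons gave 4 higher and 9 lower, 23 higher and 1 lower, and 19 higher and none lower. Of all genes, that scaling gave 5342 higher and 422 lower (median 0.42), 533 and 2911 (median -0.20), and 1937 and 383 (median 0.21).

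**Figure D4:**
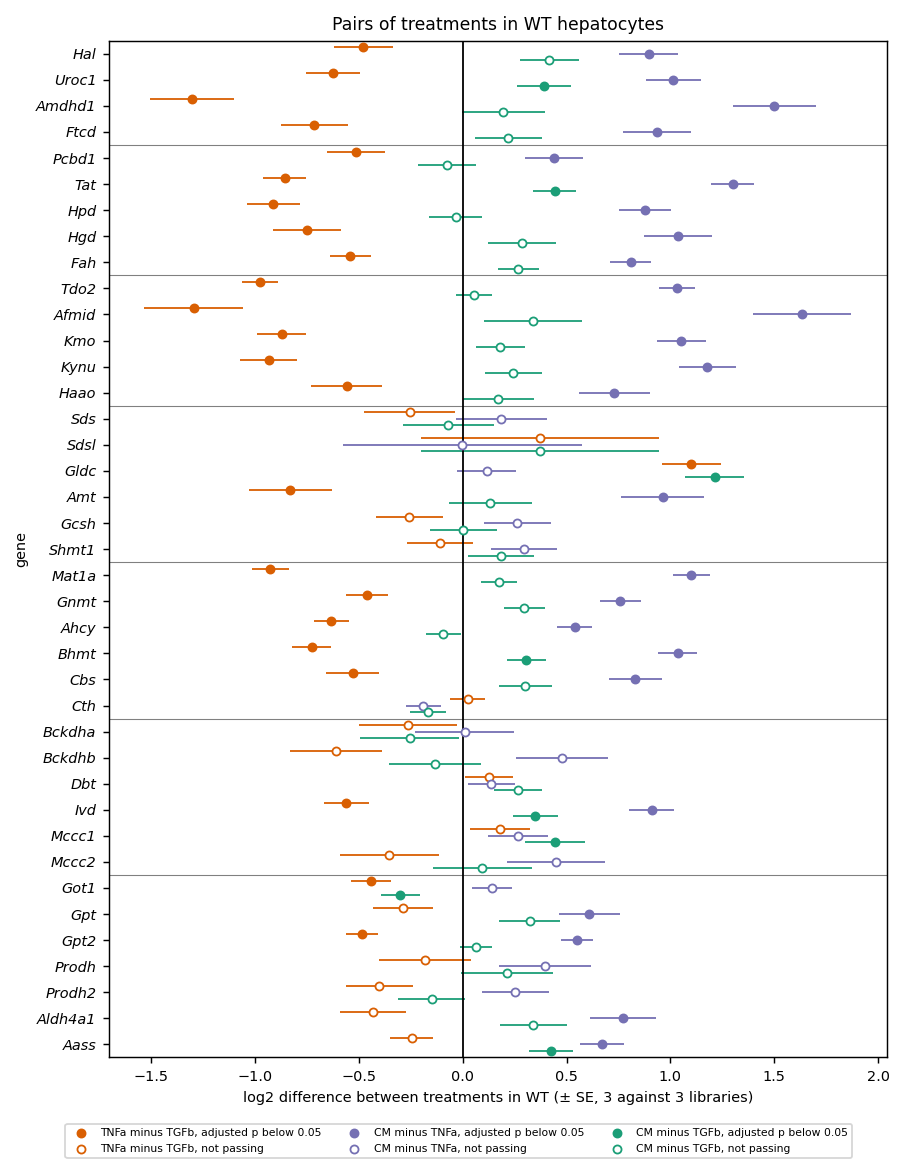
Log2 differences between pairs of treatments in WT hepatocytes (horizontal, 3 against 3 libraries, ± SE of the fit to all 18 libraries) for the 39 genes (vertical), filled where the adjusted p is below 0.05. TNFa minus TGFb lies mostly left of 0 with a median of -0.51, CM minus TNFa mostly right of 0 with a median of 0.73, and Gldc has 2 points beyond 1 on the right. With libraries scaled to an equal sum of hepatocyte markers, the first median was -0.08, and that of all genes was 0.42.

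In KO hepatocytes too most members were lower with TNFa than with TGFb or CM, in the values as deposited. With TNFa, 34 members were lower and 1 (Gldc) higher than with TGFb, of which 12 of the lower ones turned higher under the scaling to hepatocyte markers, with a median of -1.05 (all genes: 12.3% lower, 10.1% higher, 22.4% either, median 0.04). Against TNFa, 30 were higher with CM and none lower, 4 of the 30 turning lower under that scaling, with a median of 0.78 (8.38% higher, 4.32% lower, 12.7% either, median -0.02). CM against TGFb gave 1 higher, Gldc (0.89 ± 0.14), and 4 lower, Tdo2 (-0.27 ± 0.09), Ahcy (-0.40 ± 0.08), Got1 (-0.50 ± 0.09) and Gpt2 (-0.24 ± 0.08), with Tdo2 and Gpt2 turning under that scaling and a median of -0.23 (5.20% higher, 5.39% lower, 10.6% either, median 0.00). Hal, for instance, was -1.10 ± 0.14 with TNFa minus TGFb in KO and -0.48 ± 0.14 in WT, and Bhmt -1.14 ± 0.09 and -0.73 ± 0.09. With libraries scaled to an equal sum of hepatocyte markers, TNFa against TGFb in KO gave 6 higher and 5 lower, CM against TNFa 10 higher and 5 lower, and CM against TGFb 5 higher and none lower. That scaling moved all genes too. In the same order, 9371 of all genes were higher and 249 lower (median 0.96), 194 and 7479 (median -0.65), and 3308 and 229 (median 0.30). The 5 calls of CM against TGFb became 3 without TGFb KO replicate 1 or CM KO replicate 1 or 3.

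Many other genes of the same pathways were higher in KO as well. The lists below, like the members, were chosen with earlier results of these data known, so their counts are no independent support. Of 48 further genes for amino acid breakdown, 20 rose with TNFa, 33 with TGFb and 23 with CM (all genes: 4.19%, 7.25% and 5.62%). On average 35 rose (11.2% of all genes), and none of the 48 fell in any of these comparisons. Among those with the smallest averaged p-values were Gls2, liver glutaminase (1.30 ± 0.06, adjusted p = 1.7e-16), Aldh1l1 of folate metabolism (1.13 ± 0.05), Oat, ornithine aminotransferase (1.21 ± 0.06), Gstz1, which acts between Hgd and Fah (0.96 ± 0.06), and Agxt, the peroxisomal alanine-glyoxylate aminotransferase (1.46 ± 0.09). The median of the 48 was 0.50 on average, against 0.84 for the 39 members and 0.00 for all genes. Among 23 amino acid transporters, 16 rose and 2 fell on average (median 0.34), against 11.2% and 9.53% of all genes. By treatment, 6 transporters were higher and none lower with TNFa (all genes: 4.19% and 3.70%), 10 and 1 with TGFb (7.25% and 4.95%), and 6 and none with CM (5.62% and 3.77%). They included the mitochondrial ornithine carrier Slc25a15 (0.97 ± 0.05), the plasma membrane carriers Slc38a4 (0.97 ± 0.05) and Slc38a3 (0.96 ± 0.06), and the cationic amino acid carrier Slc7a2 (0.52 ± 0.05). Of 20 hormone receptors and transcription factors of liver metabolism, 6 rose and 6 fell on average (median -0.12), against 11.2% and 9.53% of all genes. Foxo1 (-0.43 ± 0.06) and Prox1 (-0.50 ± 0.09) fell, while the glucocorticoid receptor Nr3c1 (0.26 ± 0.06), the glucagon receptor Gcgr (0.41 ± 0.10), the bile acid receptor Nr1h4 (0.60 ± 0.13) and Nr1i3 (0.72 ± 0.17) rose.

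Markers of hepatocytes and of other liver cells also differed between the groups, and these values stand beside all KO differences above. Of 11 hepatocyte markers, 2 rose and 2 fell with TNFa (all genes: 4.19% and 3.70%). With TGFb 5 rose and with CM 4 (all genes: 7.25% and 5.62%), and none of the 11 fell with these 2 (4.95% and 3.77%). Their sum was 7.84% to 7.96% of a WT library and 7.49% to 7.99% of a KO library with TNFa, 9.55% to 10.1% and 12.1% to 12.7% with TGFb, and 8.93% to 9.14% and 10.9% to 11.0% with CM. With TNFa this sum overlapped between the genotypes. The sum of the 39 members was 55658 to 58138 in WT and 78389 to 87920.2 in KO with TNFa, 84114 to 86296 and 164987 to 181417 with TGFb, and 88614 to 94086 and 145295 to 152818 with CM. Scaled to an equal sum of hepatocyte markers, after which the median of all genes in KO minus WT was -0.46 with TGFb and -0.35 with CM, 23 members rose and none fell with TNFa, 25 and 1 with TGFb, and 17 and 2 with CM. Of all 14455 genes, 742 rose and 364 fell with TNFa under that scaling, 465 and 5932 with TGFb, and 326 and 4188 with CM. The calls lost by that scaling were those of Pcbd1, Amt, Gcsh, Shmt1, Ahcy, Cth, Dbt, Mccc2, Got1 and Gpt2 with TGFb, those of Uroc1, Ftcd, Pcbd1, Fah, Amt, Shmt1, Cbs, Got1, Gpt and Aldh4a1 with CM, and that of Gpt2 with TNFa. The 16 members that rose with both TGFb and CM, as deposited and under that scaling, were Hal, Amdhd1, Tat, Hpd, Hgd, Tdo2, Kmo, Kynu, Haao, Sds, Mat1a, Gnmt, Bhmt, Bckdha, Ivd and Aass.

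**Figure D5:**
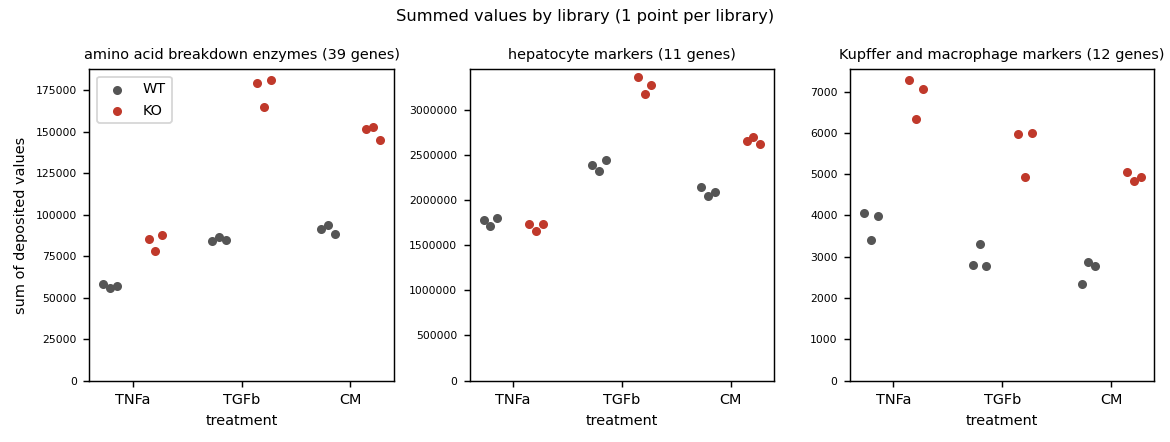
Sums of deposited values per library (vertical, linear from 0) of the 39 enzymes, of 11 hepatocyte markers and of 12 Kupffer cell and macrophage markers, by treatment (horizontal) and genotype (WT grey, KO red), 1 point per library. The enzyme sum is higher in KO with all 3 treatments, the hepatocyte sum overlaps between genotypes with TNFa, and the macrophage sum is higher in KO throughout.

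Kupffer cell and macrophage markers were higher in KO in 7, 9 and 8 of 12 with TNFa, TGFb and CM (4.19%, 7.25% and 5.62% of all genes), with none lower (3.70%, 4.95% and 3.77%). Their sum was 3402 to 4057 in WT and 6325 to 7292 in KO with TNFa, 2774 to 3316 and 4935 to 5989 with TGFb, and 2337 to 2869 and 4825 to 5049 with CM. The defining marker Clec4f rose with all 3 treatments (2.38 ± 0.46, 1.88 ± 0.46 and 1.72 ± 0.46), and Timd4 was at 0 in all 3 WT libraries with TGFb. Sinusoidal endothelial markers rose in 4, 3 and 1 of 10, and genes of isolation stress in 1, 6 and 4 of 9. The endothelial sum with TNFa was 3202 to 3622 in WT and 5772 to 6084 in KO. With TGFb it was 3416 to 3933 and 4710 to 5965.5, and with CM 2986 to 3568 and 4341 to 4622. The stress sum with TNFa was 7689 to 7858 in WT and 8820 to 9171 in KO. With TGFb it was 9808 to 10434 and 13080 to 15838, and with CM 7068 to 8156 and 9119 to 9955. The cholangiocyte sum was lower in KO with TNFa (7040 to 8464 in WT and 4950 to 6477 in KO). Stellate cell markers rose in 0, 1 and 1 of 6 tested, cholangiocyte markers in none (2 of 6 fell with TNFa), and lymphocyte and granulocyte markers in 1, 1 and 0 of 4 tested. In lists this short, a count of 0 or 1 cannot be set apart from the shares of all genes given with the macrophage markers. The part of these cell types and of stress genes in the member differences was not tested.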

How the data were processed

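Bulk RNA was sequenced from 18 libraries of hepatocytes, 6 groups of 3. The labels' protocols name RNeasy extraction, ribosomal RNA removal and PrepX libraries. The submitters' processing notes name Partek, STAR 2.7.8a, DESeq2 and mm39, with no roles, and say nothing of strand in counting. The deposited table holds 1 signal value per gene and library, which the authors normalized with DESeq2, per the table's name and the submitters' processing notes. Raw reads were not recovered from it, since at most 84.0% of values up to 20 reads were within 0.05 of a whole multiple, so no count model was run.

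Genes that reached 10 in 3 or more libraries (14455 of the 16873 listed, 48 of which were at 0 throughout) were fitted as log2(value + 1) with limma 3.58.1 (R 4.3.3) using a trended prior, 6 group means, 12 residual and 17 prior degrees of freedom, and Benjamini-Hochberg adjustment over all genes tested. Genes were called at adjusted p below 0.05. The fit was tested on simulated data. A fold on the log2(value + 1) scale understates the change of low genes. Values were printed per library for the members with the smallest p in each substrate group, those with an interaction, those running against their group, the leading treatment differences and others that show the spread. Members and lists were chosen with earlier results of these data known. No pairing by replicate number was visible: correlations of deviations between libraries with the same number were -0.068 to 0.054, none over 0.1. This does not exclude that libraries shared a mouse or preparation. Tried alternatives were other pseudocounts, filters and scalings, the groups compared alone, no trend, library weights, the replicate block and leaving out each library. Gcat, Tdh, Tf and S100a9 were listed but not used.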

Additional observations from a re-analysis of the deposited data

Results flagged for a closer look

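The KO difference was tested for a dependence on the treatment in limma, with adjustment over all genes, and 4 members passed the F-test and 1 more, Ahcy, passed a single pair of treatments only (F-test adjusted p = 0.066). The F-test over the 3 treatments gave adjusted p = 0.0041 for Cth, 0.016 for Gpt2, 0.028 for Ivd and 0.049 for Uroc1. Cth, the last enzyme of cysteine formation, had a KO difference smaller with TNFa than with TGFb by -0.54 and larger with CM than with TNFa by 0.68. The KO difference of Gpt2 differed by -0.56 and that of Ahcy by -0.48 between TNFa and TGFb (TNFa minus TGFb). Between CM and TGFb (CM minus TGFb) it differed by -0.78 for Uroc1 and by -0.66 for Ivd. With no trend of the prior variance none of the 4 F-test calls was kept (adjusted p = 0.073 for Cth, 0.09 for Gpt2, 0.11 for Ivd and 0.21 for Uroc1), and with equal totals only that of Cth was. The call of Cth was also lost with the scaling to hepatocyte markers (adjusted p = 0.13). That of Gpt2 was also lost with that scaling and with quantile normalization (adjusted p = 0.078 to 0.41). That of Uroc1 was also lost with a pseudocount of 0.5, no filter on low values, quantile normalization or library weights (adjusted p = 0.05 to 0.074).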

How the results depend on the processing

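The counts of members called in KO against WT in either direction stayed within 1.5 times under all alternatives run, with each treatment and on average. The count of members that rose with CM, taken alone, fell by more than 1.5 times under the scaling to hepatocyte markers. With a pseudocount of 5 or a filter keeping genes with a mean of 50 or more, 253 of 253 member calls over all comparisons were kept, and with equal totals 228 were. Scaling to an equal sum of hepatocyte markers moved most: 154 of the 253 calls were kept, 79 were lost and 20 turned. Those that turned were Gpt2 in KO against WT with TGFb (-0.15) and Ahcy on average (-0.0060). In TNFa against TGFb in KO they were Ftcd (0.0042), Pcbd1 (0.19), Sds (0.24), Gcsh (0.17), Gnmt (0.11), Cth (0.42), Bckdhb (0.20), Mccc1 (0.49), Got1 (0.036), Gpt (0.046), Prodh2 (0.42) and Aass (0.24). In CM against TNFa in KO they were Gcsh (-0.074), Cth (-0.15), Got1 (-0.24) and Gpt (-0.021), and in CM against TGFb in KO Tdo2 (0.024) and Gpt2 (0.059). In TNFa against TGFb in KO the median of all genes was 0.04 as deposited, 0.96 under that scaling and 0.29 with equal totals. Under that scaling the median of all genes was -0.65 in CM against TNFa in KO and 0.30 in CM against TGFb in KO. The cause of the other changes was not tested.

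Counts of members called in either direction moved by over 1.5 times as follows. The 4 interaction calls became 2 with quantile normalization, 1 with equal totals, 7 with the hepatocyte scaling and 0 with no trend of the prior variance (where 2 of all genes passed, against 246), and 1 to 7 on leaving out a library. With the hepatocyte scaling, TNFa against TGFb went from 24 to 13 in WT and from 35 to 11 in KO, CM against TNFa in KO from 30 to 15, and CM against TGFb in WT from 8 to 19. CM against TGFb in WT fell to 5 with no trend, 2 with the groups compared alone, and 3 to 8 without a library, and gave 10 higher and none lower with quantile normalization or equal totals. CM against TGFb in KO became 3 with equal totals, 3 with no trend and 3 to 7 without a library. The replicate block gave 22, 35 and 25 calls in KO against WT with TNFa, TGFb and CM, 37 on average, and 3 in place of 5 for CM against TGFb in KO. Among all genes, calls by the hepatocyte scaling rose from 1764 to 6397 (KO against WT with TGFb), 1358 to 4514 (CM), 2991 to 6526 (average), 246 to 3939 (interaction), 1936 to 5764 and 3237 to 9620 (TNFa against TGFb in WT and KO), 1774 to 3444 and 1835 to 7673 (CM against TNFa in WT and KO) and 1530 to 3537 (CM against TGFb in KO). Equal totals gave 4875 for TNFa against TGFb and 2784 for CM against TNFa in KO. Fitting the groups compared alone gave 719 in place of 1141 (TNFa), 795 in place of 1358 (CM) and 904 in place of 1774 (CM against TNFa in WT). Interaction calls were 150 with no filter, 439 with library weights and 111 to 521 without a library. Depth limits Sdsl most, at 11.0 to 78.0 estimated reads.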
